A study of Rattus norvegicus with 4 samples.

Results

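Nuclei of D1 dopamine receptor neurons carrying many immediate-early transcripts made up 222 of 3152 D1-gated nuclei, among 26228 nuclei of the rat nucleus accumbens. A nucleus passed the D1 gate with at least 200 detected genes, at least 2 UMIs (unique molecular identifiers, each standing for 1 captured RNA molecule) of Drd1 and Ebf1 together, at most 1 of Drd2 and Adora2a together, at least 5 of Pde10a and at most 4 of Grm8. It was called activated, and a member, when Fos, Fosb, Junb, Egr4, Nr4a1 and Nr4a3 together gave at least 5 UMIs. The 2198 D1-gated nuclei with no UMI of these 6 genes served as the comparison group, called zero nuclei here. The remaining 732 D1-gated nuclei, with a sum of 1 to 4, entered neither group.

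The nuclei came from male and female Sprague-Dawley rats aged 90 to 120 days, with no genetic change named in the labels. Rats received 7 daily intraperitoneal injections of cocaine at 20 mg/kg or of saline, and tissue was taken 1 h after the last one. Each of the 4 single-nucleus libraries pooled a 2 mm punch of the nucleus accumbens from 4 rats: 1 saline and 1 cocaine library from females, and the same from males. The nuclei of a library therefore cannot be traced to a rat, and the library was the replicate, with 2 per treatment. The study compared the response of neuron types to repeated cocaine.

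Immediate-early genes are transcribed within minutes of strong synaptic or dopamine receptor stimulation, without new protein synthesis. In D1 neurons, dopamine raises cyclic AMP and, with glutamate, drives kinases that activate transcription factors already bound at these genes, such as CREB at the cyclic AMP response element (CRE). Their products, among them the FOS and JUN families, EGR factors and the NR4A nuclear receptors, then change the transcription of slower genes for synaptic, secreted and signalling proteins.

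Upstream sequences of 4 such genes are shown because CRE letters occur in each of them: Nr4a1 and Egr4 helped to choose the members, Ell2 is a marker that did not, and Scg2 is a secretory gene. Each is the 250 bases before the RefSeq transcription start, 5′ to 3′, with capitals marking the full CRE TGACGTCA and its core TGACG on either strand (CGTCA on the other strand). A full CRE also holds the core.
Nr4a1 promoter, GRCr8 chr7:134259888-134260137, plus strand: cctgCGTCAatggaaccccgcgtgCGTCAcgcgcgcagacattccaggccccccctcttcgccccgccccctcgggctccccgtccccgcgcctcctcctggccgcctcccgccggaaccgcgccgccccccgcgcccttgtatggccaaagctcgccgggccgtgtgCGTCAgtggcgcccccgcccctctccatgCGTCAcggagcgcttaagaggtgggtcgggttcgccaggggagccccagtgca
Egr4 promoter, GRCr8 chr4:119607818-119608067, minus strand: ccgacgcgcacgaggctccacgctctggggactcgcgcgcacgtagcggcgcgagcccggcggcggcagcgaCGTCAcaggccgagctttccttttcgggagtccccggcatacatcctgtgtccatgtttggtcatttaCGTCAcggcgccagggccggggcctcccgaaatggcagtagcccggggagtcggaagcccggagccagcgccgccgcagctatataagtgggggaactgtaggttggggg
Ell2 promoter, GRCr8 chr2:6921602-6921851, plus strand: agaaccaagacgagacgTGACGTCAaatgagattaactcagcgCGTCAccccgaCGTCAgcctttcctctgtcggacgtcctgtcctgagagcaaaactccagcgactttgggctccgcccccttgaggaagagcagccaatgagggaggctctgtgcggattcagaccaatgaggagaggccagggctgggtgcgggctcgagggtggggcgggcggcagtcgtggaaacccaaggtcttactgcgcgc
Scg2 promoter, GRCr8 chr9:88256867-88257116, minus strand: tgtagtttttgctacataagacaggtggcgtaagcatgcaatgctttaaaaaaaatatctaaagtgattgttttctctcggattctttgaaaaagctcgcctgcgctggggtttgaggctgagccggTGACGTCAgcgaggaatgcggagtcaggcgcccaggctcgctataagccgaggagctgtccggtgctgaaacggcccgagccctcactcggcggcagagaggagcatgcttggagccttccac
Of the 6 rule genes, 4 had a promoter in the RefSeq table, and 3 of those 4 (Junb, Egr4 and Nr4a1) held the core, against 18.2% of all 33469 promoters over the same length. No full CRE, AP-1 site (TGANTCA) or CArG box was found in those 4 promoters, and these occur in 531, 2122 and 501 of all promoters. Of the 10 matched promoters among the 12 higher genes named below by adjusted p, 5 held the core (Nts, Sik2, Slc25a25, Egr1 and Arpp19). Of these, 1 (Slc25a25) held a full CRE. Of 11 genes named as higher with cocaine, 10 were matched. The core was found in 3 of them (Ell2, Tac1 and Scg2), and 2, Ell2 and Scg2, held a full CRE. A match describes letters in this window only.

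Members were a small share of D1-gated nuclei in every library. They numbered 48 of 632 in the saline female library (7.59%, exact 95% binomial interval 5.65 to 9.94%), 36 of 837 in the saline male library (4.30%, 3.03 to 5.91%), 73 of 818 in the cocaine female library (8.92%, 7.06 to 11.1%) and 65 of 865 in the cocaine male library (7.51%, 5.85 to 9.48%). The intervals cover counting error only. The cocaine share was higher than the saline share of the same sex in both sexes, but the cocaine male library lay just below the saline female one. The mean was 8.22% ± 1.00 with cocaine and 5.95% ± 2.33 with saline (SD, n = 2 libraries each). The difference of 2.27 percentage points was within the spread between libraries (exact permutation test over the 4 libraries, two-sided, p = 0.667). The smallest p this design allows is 0.333. Each treatment held 1 library per sex, so this spread cannot be told apart from a difference between the sexes. The test did not pair libraries by sex. Cocaine minus saline was 1.33 points in females and 3.21 in males.

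The threshold was rarely reached by nuclei that should lack these transcripts. Among oligodendrocyte-gated nuclei (at least 10 UMIs of Mbp and Mobp together and at most 1 of Pde10a), 0 nuclei reached the threshold in 3 libraries and 1 of 1292 in the cocaine male library. A count of 0 allows a share of up to 0.157%, 0.173% and 0.25% in the saline female, cocaine female and saline male libraries. Their median depth was 1600 to 2098 UMIs, against 7234 to 10375 in D1-gated nuclei. After thinning both to 1500 UMIs, 2 or more UMIs of the 6 genes remained in 0 to 0.132% of oligodendrocyte-gated nuclei and in 2.99 to 6.11% of D1-gated nuclei. Members were slightly deeper than zero nuclei, with medians of 10694 against 10344, 8442 against 7786, 8944 against 8138 and 7585 against 7005 UMIs in the saline female, saline male, cocaine female and cocaine male libraries. When all D1-gated nuclei were thinned to 5000 UMIs, members made up 5.15%, 3.10%, 5.96% and 5.46% of those deep enough, in the same order. Between 10 and 18 cell barcodes were shared by each pair of libraries, and 2 members carried such a barcode.

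The 6 genes took unequal parts in the choice. Nr4a1, which encodes a nuclear receptor without a known natural ligand, was seen in 80.0 to 97.2% of members by library. Junb, an AP-1 subunit, was seen in 75.0 to 85.4%. Fos, the best known gene of the set, was seen in only 35.6 to 43.8% and Fosb in 16.7 to 39.7%. Of the 222 members, 12 owed their sum to a single gene, 118 held at least 4 of the 6 genes and 27 held all 6. Each gene could also be checked in nuclei chosen by the other 5. In that check Fos stood at 76.1, 86.3, 65.0 and 87.7 CPM (UMIs of the gene scaled to a common total; saline female, saline male, cocaine female, cocaine male) when the others summed to at least 5. It stood at 0, 1.59, 1.23 and 0.441 when they summed to 0. Nr4a3 was less regular: in nuclei chosen by the other 5 it was seen in 68.4, 20.0, 82.1 and 58.3%, in the same order. These values describe the choice of nuclei and were not tested.

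Nr4a3, a nuclear receptor of the same family as Nr4a1, differed most between treatments among the 6. In members it stood at 278 and 242 CPM in the saline female and saline male libraries, and at 1206 and 903 in the cocaine ones. Nr4a3 gave 19.6% and 17.9% of the six-gene sum with saline and 52.1% and 45.7% with cocaine. Nr4a1 stood at 427 and 352 with saline and 403 and 331 with cocaine, Junb at 336 and 469 against 344 and 372, and Egr4 at 208 and 155 against 208 and 207. Of the 6 genes, Nr4a3 was the one for which both cocaine libraries lay above both saline libraries. Because Nr4a3 helps to choose the members, its difference is a description. The median sum was 12 and 9 UMIs with saline and 19 and 11 with cocaine.

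**Figure D1:**
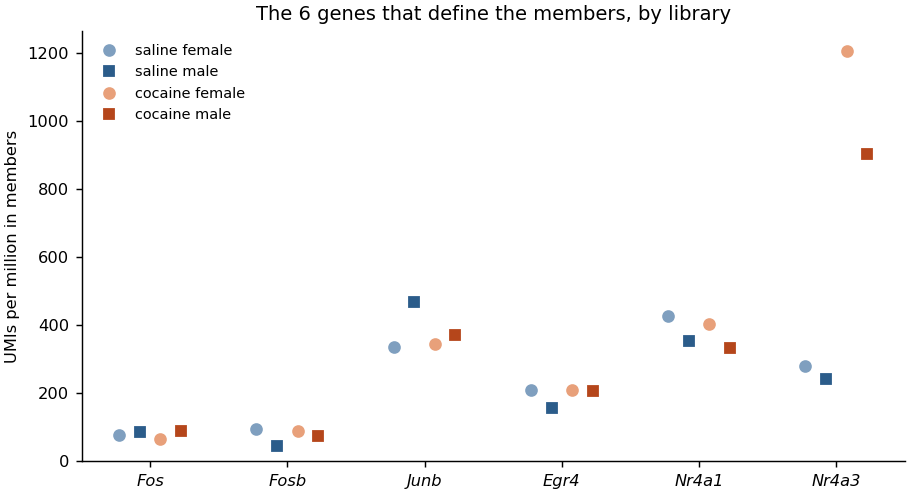
CPM (vertical axis, linear) of each of the 6 genes in the members of each library; 1 point is 1 library. Nr4a3 separates the 2 cocaine libraries (1206 and 903) from the 2 saline libraries (278 and 242).

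Outside the 6 genes, members differed from zero nuclei in many others. Of 10915 genes tested across the 4 libraries, each with its members and its zero nuclei, 965 were higher in members (8.84%) and 401 lower (3.67%), 12.5% together, by the quasi-likelihood test of edgeR with p-values adjusted over all genes. Of the 1366 called, 1207 had the same sign in all 4 libraries. The 12 gate and rule genes were left out of all counts. Against nuclei of equal depth, 682 of 6791 genes were higher, and 654 of these were among the 965. DESeq2 called 778 higher and 121 lower. Without the cocaine female library 647 were higher and 164 lower, and without the cocaine male library 622 and 140.

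The transcription factors of the early response moved with the rule genes. Of 24 listed immediate-early factors not used in the rule, 12 passed the filter on low counts and 11 of those rose (median log2 difference 3.37, against -0.05 over all genes). The filter lets a gene pass through the group where it is high, so these counts describe only what was measurable. Npas4, a neuron-specific factor switched on by calcium entry, stood at 53.8, 77.6, 35.6 and 39.0 CPM in members of the saline female, saline male, cocaine female and cocaine male libraries. It gave 103 UMIs in all members and 4 in all zero nuclei, none of them in the cocaine libraries, so it passed the filter through members and no fold is given. Egr1, a zinc-finger factor induced through serum response factor, stood at 137, 80.6, 80.8 and 54.9 in members and at 6.62 to 8.62 in zero nuclei. Fosl2, a FOS-family AP-1 subunit, stood at 53.8, 41.8, 152 and 79.7 in members and at 0.624 to 2.48 in zero nuclei. For all 3 genes the summed level of members was above that of zero nuclei in each library.

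Effectors of synaptic activity rose as well. Of 20 listed genes, 13 were tested and 12 rose (median 2.69), counts that again describe only what was measurable. Arc, whose protein acts at active synapses to internalise AMPA receptors, stood at 176, 161, 125 and 93.9 CPM in members. In zero nuclei it stood at 0.414, 1.80, 1.46 and 3.54, from 34 UMIs in all. Arc thus passed the filter through members, and no fold is given. Homer1, a postsynaptic scaffold gene, stood at 1718, 1660, 4559 and 3661 in members and at 493, 526, 571 and 579 in zero nuclei (log2 difference 2.46 ± 0.17 (SE), adjusted p = 1.0e-08). Gadd45g, a stress and DNA demethylation gene, stood at 111, 108, 133 and 175 in members and at 3.52 to 11.5 in zero nuclei. Bdnf, a neurotrophin gene on the list, was not measurable, with 10 UMIs in 1 cocaine female member and 1 UMI in all zero nuclei.

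Ell2 and Pcsk1 were the markers given for these nuclei that the rule did not use. They were picked with earlier results of these data known, so their higher levels in members are a description. Pcsk1 encodes a convertase that cuts peptide precursors in dense-core vesicles. It stood at 46.4, 114, 352 and 248 CPM in members and at 6.62, 5.40, 5.41 and 3.09 in zero nuclei (log2 difference 5.23 ± 0.36). Ell2 encodes an elongation factor that releases paused RNA polymerase. It stood at 276, 305, 1230 and 675 in members and at 101 to 107 in zero nuclei (2.55 ± 0.26). Of 11 tested genes of the super elongation complex, Ell2 and Aff4 rose and 9 did not pass the test (median -0.02). Of the 10 dense-core secretory genes, 6 rose: Pcsk1, Scg2, Pam, Cpe, Vgf and Chgb (median 0.91). Scg2, a granin packed into those vesicles, stood at 286, 218, 648 and 466 in members and at 53.6 to 85.8 in zero nuclei.

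Feedback genes of the kinase and cyclic AMP pathways followed, with 10 of 16 tested genes higher and none lower (median 1.08). Sik2, a kinase that holds back CREB coactivators, rose by 2.61 ± 0.13 on the log2 scale (adjusted p = 1.4e-10). Dusp14, a phosphatase that acts on mitogen-activated kinases, stood at 72.4, 92.6, 107 and 103 CPM in members and at 14.2 to 17.5 in zero nuclei. Among the 12 higher genes with the smallest adjusted p were also Pdp1, a mitochondrial pyruvate dehydrogenase phosphatase (2.89 ± 0.12), Slc25a25, a mitochondrial carrier (2.35 ± 0.14), Cx3cl1, which encodes the chemokine fractalkine (1.83 ± 0.11), Gpr63, an orphan G protein-coupled receptor (2.52 ± 0.15), Btbd8 (3.09 ± 0.19) and Arpp19, a phosphatase regulator (1.56 ± 0.10). Heat shock genes, which can mark handling of tissue, were higher for 5 of 6 tested genes (median 1.00), and their part in the result was not tested.

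**Figure D2:**
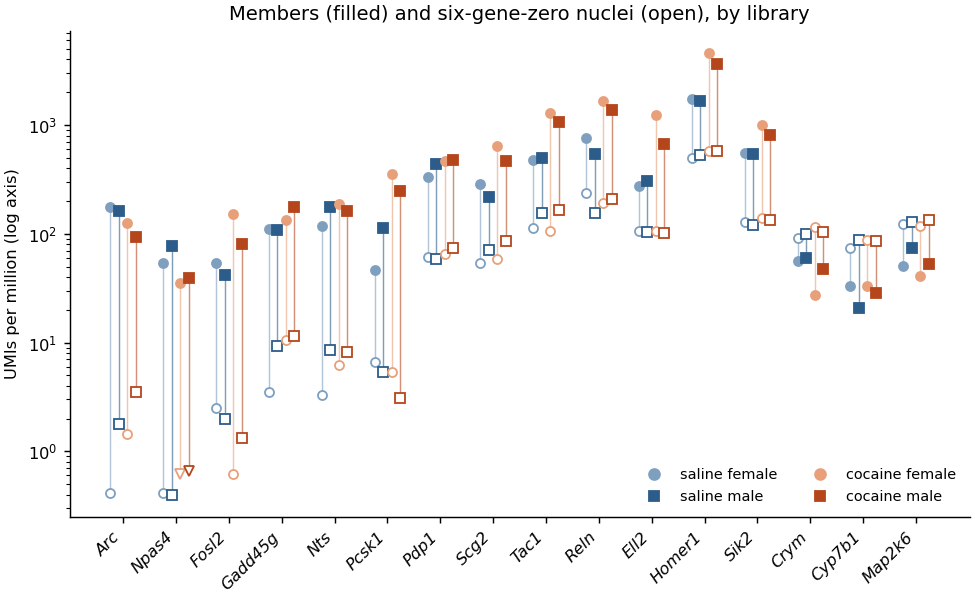
CPM (log axis) of 16 genes in members (filled) and zero nuclei (open) of each library; a triangle marks the level that 3 UMIs would give where a library had none. Every gene from Arc to Sik2 lies higher in members in all 4 libraries, and Crym, Cyp7b1 and Map2k6 lie lower.

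Several neuropeptide genes were higher in members, a grouping made after the values were seen. Nts, the neurotensin gene, had the smallest adjusted p of the higher genes named. It stood at 117, 176, 186 and 163 CPM in members and at 3.31, 8.61, 6.24 and 8.18 in zero nuclei (log2 difference 4.80 ± 0.18, adjusted p = 1.0e-12). These UMIs lay in few nuclei: 5 of 48, 5 of 36, 8 of 73 and 8 of 65 members, and the nucleus with most UMIs held 46 to 70% of them. Tac1, the substance P precursor of D1 neurons, was broader, with 257, 167, 938 and 607 UMIs in 39, 31, 61 and 60 members (2.72 ± 0.22, adjusted p = 5.1e-08). Penk, better known from D2 neurons, rose by 1.99 ± 0.21 and Pdyn, the dynorphin precursor, by 1.28 ± 0.16. Reln, the gene of the secreted protein reelin, stood at 751, 540, 1675 and 1367 in members and at 238, 154, 191 and 210 in zero nuclei (2.52 ± 0.19, adjusted p = 2.8e-08). Of the 17 subtype markers listed, 10 were higher in members and Crym was lower (median 0.91). Members and zero nuclei were not matched by sub-cluster, and the share of members differed between the sub-clusters described below. Crym, for example, stood at 19.4 CPM in the sub-cluster led by Casz1 and at 121 in the one led by Runx2. Whether these markers changed within nuclei or the mix of nuclei differed was not tested here.

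The genes that fell did so by less. Cyp7b1, a steroid hydroxylase, stood at 33.4, 20.9, 32.9 and 28.3 CPM in members and at 73.6, 87.2, 87.1 and 86.7 in zero nuclei (log2 difference -1.31 ± 0.18, adjusted p = 5.2e-05). Crym, which binds thyroid hormone, fell by 1.00 ± 0.19 and Thra, a thyroid hormone receptor, by 0.96 ± 0.15. Map2k6, a kinase of the p38 pathway, fell by 1.08 ± 0.15, and Sulf1, an extracellular sulfatase, by 1.35 ± 0.23. Dock10, Stard13 and Srgap3, which act on small GTPases, fell by 0.75 ± 0.12, 0.70 ± 0.11 and 0.65 ± 0.11. Of 11 tested spiny neuron identity genes, Meis2, Rgs9, Foxp2 and Foxp1 rose, and Isl1 and Ppp1r1b fell. Ppp1r1b, the DARPP-32 gene, differed little (-0.39 ± 0.12, adjusted p = 0.042) and did not pass at equal depth (adjusted p = 0.054). Drd1, a gate gene, stood at 158, 197, 173 and 207 in members and at 109 to 163 in zero nuclei.

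Over all libraries together, Homer1 and Pcsk1 rose with the six-gene sum and began to do so below the threshold. Not every gene rose at each step: from 5 to 9 to 10 to 19, Elmo1 went from 1893 to 1496 CPM and Reln from 863 to 777. Ppp1r1b was lower at high sums, with 205 at a sum of 0 and 106 at 20 or more. Homer1 stood at 541 CPM at a sum of 0, 723 at 1, 1170 at 2, 1612 at 3 to 4, 2316 at 5 to 9, 2551 at 10 to 19 and 4776 at 20 or more. Pcsk1 stood at 5.17, 10.7, 24.3, 46.3, 88.1, 111 and 454 over the same steps. Of the 71 nuclei at 20 or more, 51 came from the cocaine libraries, and the last 3 steps did not rise in every library. Homer1 stood at 1830, 1453 and 1887 in saline female nuclei and at 1563, 2066 and 1384 in saline male ones, against 3045, 3427 and 6057 in cocaine female and 2588, 3228 and 6074 in cocaine male ones. Pcsk1 stood at 43.2, 21.9 and 80.9 in saline female nuclei and at 132, 0 and 219 in saline male ones, from at most 25 UMIs a step. Arc behaved differently, with 12.6 at 3 to 4 and 68.9 at 5 to 9. Just outside the threshold, the 42 nuclei with a sum of 4 held Homer1 at 1812, Ell2 at 262 and Arc at 10.5 (4 UMIs). Just inside it, the 23 nuclei with a sum of 5 held 1758, 372 and 103 (23 UMIs). In these pooled values Homer1 showed no step at the threshold, while Arc was higher just inside it. By library, from a sum of 4 to 5, Homer1 went from 910 to 1124 in saline female and from 1422 to 893 in saline male nuclei. It went from 2769 to 3054 in cocaine female and from 1747 to 1954 in cocaine male nuclei, with 5 to 15 nuclei per library and sum.

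**Figure D3:**
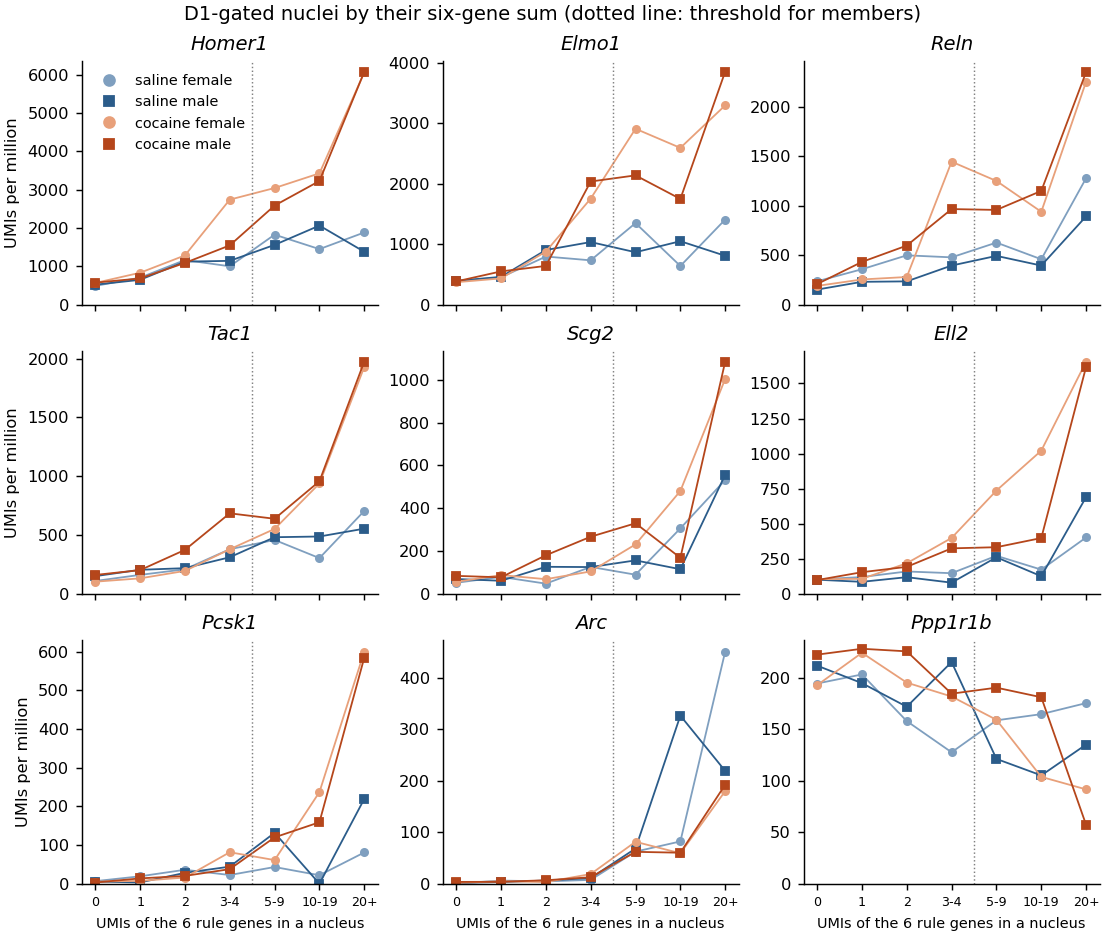
CPM (vertical axes, linear, starting at 0) of 9 genes in D1-gated nuclei grouped by their six-gene sum, with 1 line per library and a dotted line at the threshold. At a sum of 20 or more, Homer1 stands at 6057 and 6074 in the cocaine libraries and at 1887 and 1384 in the saline ones.

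Members with cocaine and members with saline differed in part of this program. Of 6759 genes tested, 196 were higher with cocaine in members (2.9%) and 21 lower (0.311%), 3.21% together, by edgeR's quasi-likelihood test with sex in the model. In this fit 1 residual degree of freedom was left and the spread was shared across genes without limit, so the adjusted p-values rest on that sharing. DESeq2 called 29 higher and 0 lower, with 162 genes at an unadjusted p under 0.05. It gave an adjusted p to 728 genes only, and all 29 were among the 196. Without the cocaine female library, with sex dropped from the fit, 66 were higher and 8 lower, and without the saline female library 111 and 15.

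The 5 genes with the smallest adjusted p were Ptpro, Elmo1, Tafa1, Ell2 and Homer1. Ptpro, a receptor tyrosine phosphatase, stood at 100 and 53.7 CPM in saline female and saline male members and at 486 and 319 in cocaine members (log2 difference 2.45 ± 0.24, adjusted p = 2.4e-21). Elmo1, an activator of the Rac GTPase pathway, stood at 1126 and 905 with saline and 3033 and 2437 with cocaine (1.49 ± 0.15, adjusted p = 8.9e-19). Ell2 rose by 1.75 ± 0.18 (adjusted p = 5.2e-18) and Homer1 by 1.33 ± 0.15 (adjusted p = 7.3e-17). For these 4 genes both cocaine libraries lay above both saline libraries. Tafa1, a secreted neurokine gene, differed by 4.52 ± 0.47, but 1 nucleus held 88% of its 138 UMIs in the cocaine female members, and it could not be tested without the highest nucleus. With the highest nucleus of each gene left out, 181 genes were higher, and 164 of them were among the 196.

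The peptide gene Tac1, Reln and the secretory genes Pcsk1 and Scg2 were among those higher with cocaine. Nts, Penk and Pdyn did not pass, which does not show equal levels. Pcsk1 rose by 2.08 ± 0.25 (adjusted p = 2.7e-14), Tac1 by 1.33 ± 0.17 (adjusted p = 2.8e-12), Reln by 1.30 ± 0.16 (adjusted p = 1.2e-12) and Scg2 by 1.20 ± 0.19 (adjusted p = 1.1e-07). Tac1 stood at 477 and 499 CPM with saline and at 1285 and 1075 with cocaine. Of the 10 secretory genes tested, Pcsk1 and Scg2 rose and 8 did not pass (median 0.51, against -0.02 over all genes). Of 10 tested immediate-early factors, Tiparp, Fosl2 and Crem rose (median 0.36). Of 10 tested effectors, Homer1 and Inhba rose (median 0.28). Sik2, Pde7b and Pde4a rose among 14 feedback genes (median 0.13), and Calb1 joined Reln and Tac1 among 17 subtype markers (median 0.19).

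Other genes of the early response showed no such difference that passed the test. Arc stood at 176 and 161 CPM with saline and 125 and 93.9 with cocaine (log2 difference -0.56 ± 0.24, adjusted p = 0.24). Egr1 differed by -0.62 ± 0.28 (adjusted p = 0.27), Npas4 by -0.72 ± 0.33 (adjusted p = 0.27), Plk2, a kinase that weakens active synapses, by 0.31 ± 0.23 (adjusted p = 0.60) and Nts by 0.36 ± 0.23 (adjusted p = 0.54). These 5 misses do not show equal levels. Lower genes among those with the smallest adjusted p were Arntl, the clock gene BMAL1 (-1.52 ± 0.35), Cdh4, a cadherin (-0.86 ± 0.20), Ccdc57 (-0.88 ± 0.23) and Sh3rf2 (-0.99 ± 0.26). Each of these 4 lost its call in at least 1 fit that left out a library.

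Cocaine members also had larger sums of the rule genes, so they were matched to saline members of the same sex on the sum of the 5 rule genes other than Nr4a3. The median sum of those 5 was then 10 against 9.5 UMIs in females and 8 against 7.5 in males (saline, cocaine). The median sum of all 6 still differed, at 12 against 24 in females and 9 against 13 in males, more than before matching. In the matched sets of 48 and 36 members per treatment, 296 genes were higher with cocaine, and 178 of the 196 were among them. Ell2 then rose by 2.16 (adjusted p = 1.8e-23) and Homer1 by 1.62 (adjusted p = 1.3e-15). Markers of oligodendrocytes moved with treatment too: the 4 listed genes (Mbp, Mobp, Mog and Mag) summed to 72.3 and 17.9 CPM in saline members and 76.7 and 221 in cocaine members, and to 78.9 to 162 in zero nuclei. Of the 4, Mag was at 0 in saline male members and none was at 0 in the other libraries. Mog and Mbp passed the test in members (log2 differences 2.96 and 1.32, with 4 and 20 cocaine male members holding a UMI), as did Vcan, of the precursor list. Without the 4 sub-clusters led by markers of other classes, which held 12 members, 203 genes were higher with cocaine, Mbp did not pass (adjusted p = 0.66), and 167 of the 196 were still called.

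**Figure D4:**
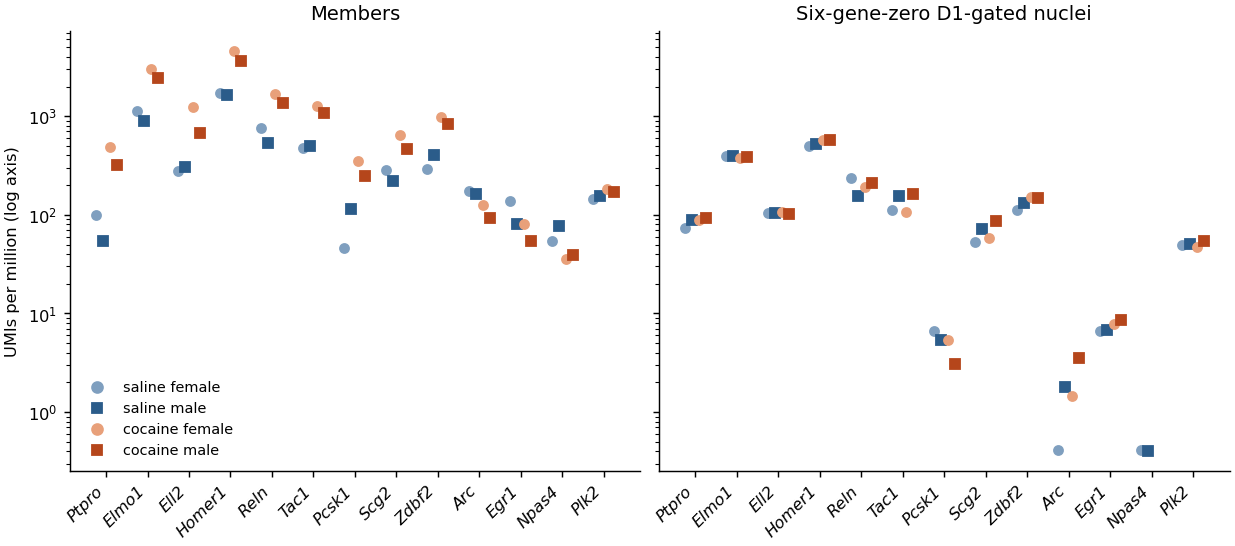
CPM (log axis) of 13 genes in members (left) and zero nuclei (right) of each library; Npas4 had no UMI in the zero nuclei of the 2 cocaine libraries, which show no point. From Ptpro to Zdbf2 both cocaine libraries lie above both saline libraries in members, while Ell2 lies at 101 to 107 in all 4 libraries in zero nuclei.

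In zero nuclei few genes passed the same comparison. Of 12270 genes tested there, 1 was higher with cocaine (0.00815%) and 7 lower (0.057%), 0.0652% together, and 22 to 130 were called when a library was left out. Among the listed genes, Homer1 differed by 0.14 ± 0.07 (adjusted p = 0.59), Ell2 by -0.04 ± 0.09 (adjusted p = 0.93), Reln by 0.03 ± 0.13 (adjusted p = 0.97) and Tac1 by -0.02 ± 0.08 (adjusted p = 0.97). The lower genes named were Dner, Grik1, Bcas1, Nxph1 and Cdh20. The difference between the 2 kinds of nuclei was tested directly. The member-to-zero difference was larger with cocaine for 179 of 10915 genes (1.64%) and smaller for 7 (0.0641%), 1.7% together, by edgeR's quasi-likelihood test. It was larger by 1.59 ± 0.15 for Elmo1 (adjusted p = 7.9e-11), 1.53 ± 0.17 for Cpeb3, a regulator of translation at synapses (adjusted p = 1.8e-09), 1.80 ± 0.20 for Ell2 (adjusted p = 2.9e-09), 2.25 ± 0.26 for Ptpro (adjusted p = 5.0e-09), 1.21 ± 0.14 for Homer1 and 1.30 ± 0.17 for Reln. Nxph1 was also among the 5 genes with the smallest adjusted p, but 1 nucleus held 95% of its UMIs in cocaine female members, and it did not pass without that nucleus (adjusted p = 0.11). At equal depth, with far fewer zero nuclei, 22 genes were larger and 1 smaller. Elmo1, Cpeb3, Ell2, Ptpro, Homer1 and Reln were still called, while Pcsk1 (adjusted p = 0.67) and Tac1 (adjusted p = 0.053) were not. Among the smaller differences were Nemp1, Rgs20 and Zfp827, and none of these 3 kept its call in every fit that left out a library. The larger differences numbered 49 when the saline female library was left out, 93 without saline male and 90 without cocaine female, and 248 without cocaine male.

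By 1 h after the last injection members, though few, held a large part of some transcripts in cocaine D1-gated nuclei. Members held 82.9% and 76.1% of the Pcsk1 UMIs of the cocaine female and cocaine male D1-gated nuclei, and 27.8% and 44.2% in the saline libraries. For Homer1 the shares were 41.9% and 33.7% with cocaine and 20.5% and 12.2% with saline. For Reln they were 44.0% and 29.7% against 18.9% and 13.1%. For these 3 genes, all called higher with cocaine in members, the cocaine share was the higher one in both sexes. For Arc the order was the other way, with 84.3% and 67.9% with cocaine and 89.6% and 76.1% with saline.

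Members occurred in each sub-cluster of spiny D1-gated nuclei. Since activity genes can draw nuclei together, nuclei were clustered without any gene called between members and zero nuclei, a choice made after the data were seen. Of 6 sub-clusters that were not led by markers of other classes, 5 are described. The share of members was 4.69, 5.07, 5.06 and 4.83% in the one led by Runx2 and Iqgap3 (saline female, saline male, cocaine female and cocaine male). It was 9.16, 2.14, 8.97 and 8.70% in the one led by Il1rapl2 and Synpo2, and 7.69, 3.45, 9.48 and 8.33% in the one led by Htr4 and Nts. It was 16.7, 7.81, 20.9 and 13.9% in the one led by Casz1 and Eya2, and 12.9, 5.17, 15.6 and 12.5% in the one led by Tll1 and Oprm1, the mu opioid receptor gene. In each library the Casz1-led share was above the Runx2-led one, though the exact intervals of single libraries were wide, such as 10.0 to 36.0% for the Casz1-led nuclei of the cocaine female library. With nuclei thinned to 5000 UMIs, the Casz1-led shares were 17.2, 3.39, 17.1 and 10.0% and the Runx2-led ones 3.32, 3.04, 3.58 and 3.07%, so that the saline male library showed little gap. No sub-cluster was given a cell type name. Among sub-clusters with at least 20 nuclei in each library, the gap between the highest and lowest share averaged 10.6 percentage points in this clustering. It averaged 14.1 ± 4.53 (SD, n = 4 libraries) in the planned one. The planned one left out the listed rule, immediate-early, effector, secretory and feedback genes and Ell2, but not the other called genes. In the planned one a sub-cluster led by Nr4a3 and Pcsk1 appeared, with members making up 55.6, 40.0, 81.8 and 57.8% of its nuclei. Neither gene was among those clustered on, but other genes called between members and zero nuclei were kept, so its share is a description.

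**Figure D5:**
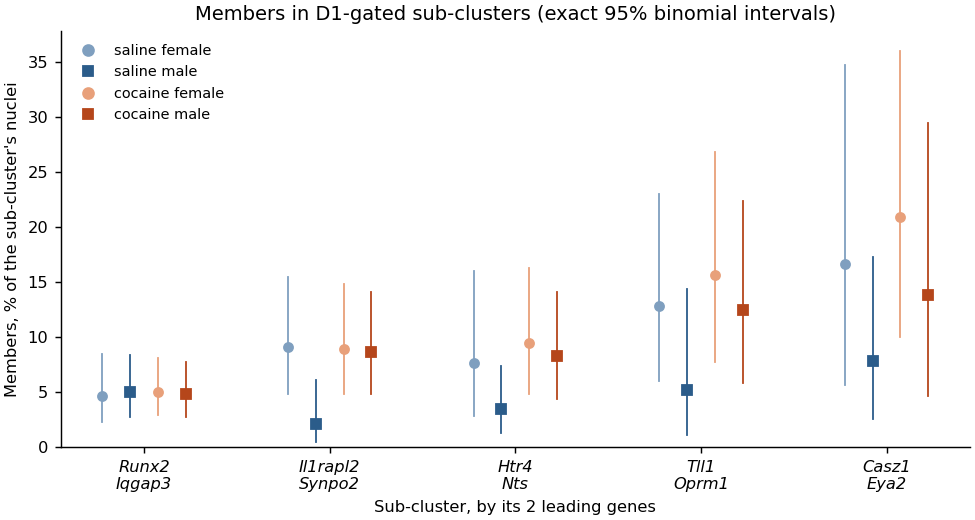
Members as a percentage of the nuclei of 5 sub-clusters (vertical axis, linear) for each library, with exact 95% binomial intervals. The Casz1-led sub-cluster stands at 7.81 to 20.9% and the Runx2-led one at 4.69 to 5.07%.

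Within sub-clusters, peptide genes and Reln were compared as sums over all libraries, which mix the treatments, without a test. In these sums Tac1 and Pdyn were higher in members in each of the 5 sub-clusters described, while Reln, Nts and Penk varied. Pdyn stood at 175 CPM in members and 100 in zero nuclei of the Tll1-led one, and at 64.2 against 22.3 in the Casz1-led one. It was not higher in every library, with 29.1 against 30.3 in the saline female library of the Il1rapl2-led one. Tac1 was not higher in the saline male library of the Casz1-led one, at 344 CPM in 5 members and 372 in 44 zero nuclei. Reln stood at 3684 CPM in 31 members and 645 in 151 zero nuclei of the Tll1-led sub-cluster, and at 847 against 150 in the Runx2-led one. By library, the Tll1-led values ran from 695 against 613 in saline males to 5632 against 599 in cocaine males. In the Casz1-led sub-cluster Reln was low in both (19.8 and 38.3), whereas Tac1 stood at 1142 against 267. Nts stood at 577 in members and 14.3 in zero nuclei of the sub-cluster it leads with Htr4, and gave no UMI in the 31 members of the Tll1-led one. Leading genes were ranked over all nuclei of a sub-cluster, members included, where Nts stood at 78.5 CPM against 11.7 in the rest. Its place as a leading gene is therefore not independent of its level in members. Penk stood at 381 in members of the Casz1-led sub-cluster and at 47.9 in its zero nuclei. In the other sub-clusters Penk was low in both, at 13.5 against 11.8 in the Runx2-led one, 15.8 against 15.3 in the Htr4-led one, 25.6 against 13 in the Il1rapl2-led one and 8.54 against 12.8 in the Tll1-led one, from 2 to 10 UMIs in members.

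D2-gated nuclei, chosen with the D1 and D2 genes of the gate exchanged, had members at 3.97 to 6.88% by library, 196 in all. Of 11064 genes tested there, 877 were higher in members than in zero nuclei (7.93%; 10.4% in either direction), and 657 of them were also among the 965 of D1-gated nuclei, which is 74.9% of the D2 list and 68.1% of the D1 list. No gene differed in its member-to-zero difference between D1-gated and D2-gated nuclei among 11502 tested (0% called), by edgeR's quasi-likelihood test, with 558 genes at an unadjusted p under 0.05 and 2 called by DESeq2. The same libraries gave both sets of nuclei. Of 6412 genes tested, 65 were higher with cocaine in D2-gated members (1.01%; 1.19% in either direction), among them Ell2 (1.57 ± 0.17), Elmo1 (1.04 ± 0.15) and Reln (2.07 ± 0.34), against 1.75, 1.49 and 1.30 in D1-gated members. The direct test of these differences did not pass (adjusted p = 0.93, 0.79 and 0.77), which does not show that they are equal.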

How the data were processed

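The authors deposited filtered gene-by-nucleus UMI count matrices for 4 libraries, 1 per sex and treatment; these raw counts carry no normalization. Per the file headers they were made with Cell Ranger 6.1.2, and per the submitters' processing notes the genome build was rn7. Library totals ran from 31484217 to 40737786 UMIs.

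The members and gene lists were chosen with earlier results of these data known. UMIs were summed per library and nucleus group, and the sums were tested with edgeR 4.0.16 (TMM, filterByExpr, quasi-likelihood, library as block or sex as covariate, adjusted p under 0.05). DESeq2 1.42.0 was the alternative tool. CPM is each sum divided by the group's total UMIs. Log2 differences are edgeR's, and ± is their approximate standard error, the log2 difference divided by the root of F. P-values measure the spread between libraries, each a pool of rats, and with 2 libraries per treatment they lean on sharing across genes.

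For members against zero nuclei, genes are named by rank of adjusted p (12 higher, 8 lower) among those with a symbol that also passed at equal depth and had the same sign in all libraries; elsewhere up to 5 per direction are named, plus members of the gene lists. Doublets were not removed from the main result; an alternative dropped the nuclei with the highest Scrublet scores (0.8% per 1000 nuclei) and nuclei over 5% mitochondrial UMIs. Clusters used 2000 variable genes, 30 components, 15 neighbours and Leiden resolution 0.4 in scanpy 1.11.5. Fits were tested on simulated data. Of genes changed 4-fold, 88.0% were recovered for members against zero nuclei and 86.0% for cocaine against saline in members. Of genes changed 2-fold, 55.0% and 40.0% were recovered. Whether the member-to-zero difference differed with cocaine was harder to detect, with 55.0% (4-fold) and 21.0% (2-fold) recovered. For D1-gated against D2-gated nuclei the values were 70.0% and 40.0%. The simulation drew sums and not nuclei, so it held no genes led by a single nucleus. It also gave each gene the spread of the trend fitted over genes, with no further spread of its own. The fit of cocaine against saline in members assumes much the same, so its recovered shares take that assumption as given. Some named genes and 1 sub-cluster are not reported here, and 1 oligodendrocyte marker was dropped from the list and the gate after the data were seen. Of the 181 listed genes, 8 were not matched by symbol. Promoters came from RefSeq, GRCr8, and were matched by symbol.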

Additional observations from a re-analysis of the deposited data

Results flagged for a closer look

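Among members, the cocaine-to-saline difference itself differed between D1-gated and D2-gated nuclei for 8 of 7392 genes (0.108%), all larger in D1-gated nuclei, by edgeR's quasi-likelihood test with the library as block. Zdbf2 stood at 295 and 406 CPM in saline and 974 and 841 in cocaine D1-gated members, and at 424 and 587 against 522 and 548 in D2-gated ones (log2 difference 1.31 ± 0.20, adjusted p = 0.0086). Mast4 differed by 2.93 (adjusted p = 0.0028), and both genes still passed with the highest nucleus left out (adjusted p = 0.0146 each). Efna5, an ephrin gene, differed by 1.27, and Mbp, a myelin gene, by 2.80; with the highest nucleus left out the differences were 1.26 and 2.97, and neither passed (adjusted p = 0.066 each). Slc1a2 differed by 5.99, Cdh20 by 9.16, Gng2 by 5.31 and Pdzrn3 by 10.20, all from at most 65 UMIs in a library's members, and these 4 could not be tested without the highest nucleus. Cdh20 and Pdzrn3 had no UMI in some libraries, so their fitted values are no bounds. A larger difference was not always a rise in D1-gated members of both sexes. In D1-gated members Gng2 went from 8.96 to 3.54 CPM in males and Mbp from 48.2 to 42.5 in females (saline, cocaine). In D2-gated male members Slc1a2 went from 216 to 8.18 and Gng2 from 92.8 to 4.09. This test was added after the data were seen, and no cause was tested.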

How the results depend on the processing

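Members against zero nuclei gave 1366 calls, 899 by DESeq2, 762 to 1144 when a library was left out, 1385 with no replicate block, and 913 to 1580 under the other settings. The test of whether the member-to-zero difference differed with cocaine gave 186 calls in either direction (179 larger, 7 smaller), 49 by DESeq2, 123 with members from a sum of 3, 23 at equal depth, 119 without the sub-clusters led by other classes' markers, 324 with members matched on the other 5 rule genes and 51 to 260 when a library was left out. Cocaine against saline in members gave 217 calls, 29 by DESeq2, 354 in matched members, 145 with no replicate block (without the sex term) and 74 to 233 when a library was left out, where the sex term was dropped and the lone library of a treatment was assumed to vary like the others. In zero nuclei the count was 8, 0 by DESeq2 (73 genes at an unadjusted p under 0.05), 2 with RLE factors, 141 with no filter on low counts, 13 without doublet calls, 0 without the sex term (538 at an unadjusted p under 0.05), 22 without the highest nucleus, 4 without those sub-clusters and 22 to 130 when a library was left out. The count for D1-gated against D2-gated nuclei was 0, 2 by DESeq2, 39 with no filter, 4 without doublet calls, 3 at equal depth, 6 without the highest nucleus and 0 to 2 when a library was left out. The cause of these shifts was not tested. The difference in the share of members ran from 0.624 to 3.92 percentage points when a library was left out, and stayed within 1 SD of 2.27 under all settings run. The range of that share over sub-clusters with at least 20 nuclei in each library was 14.1 percentage points, and 47.6 at resolution 0.6, where a sub-cluster with 32.6 to 70.0% members reached that size. Over 62 named results and their alternatives, 835 values kept direction and side of the threshold, 74 fell short of it and 1 reversed. The reversed one was Nxph1 in zero nuclei, at 0.31 without those sub-clusters. Not every setting gave a value for each named result: by DESeq2, 42 of the 62 kept theirs and 8 fell short. Genes named by rank for members against zero nuclei had to pass at equal depth to be named. Their equal-depth values in this tally are therefore no check. Settings that left out the highest nucleus, those sub-clusters or unmatched members were chosen after seeing the data. With 36 to 73 members per library, genes with few UMIs were not measurable.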
